A study of Mus musculus with 12 samples.

Results

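The transcripts followed here encode ATF4, its partner factors and its target enzymes in amino acid metabolism, in the mouse colon carcinoma line MC38 under the MEK inhibitor GDC-0623. They were the 10 genes Atf4, Atf3, Ddit3, Trib3, Chac1, Asns, Cth, Psat1, Phgdh and Sesn2, chosen by name with earlier results of these data known. All 10 were among the 18193 genes measured on the arrays. Levels were read from Affymetrix mouse GeneChip arrays as log2 values after robust multichip averaging (RMA). For each gene the probe set with the highest mean over the 12 arrays was used, among those annotated to that gene only. The 12 arrays formed 4 groups of 3 biological replicates. The first group received the solvent DMSO for 24 h, the second DMSO for 72 h, the third 100 nM GDC-0623 for 24 h and the fourth 100 nM GDC-0623 for 72 h. All cells were of the same line, grown as monolayers, and inhibitor or solvent was added on the day after seeding. The 72 h cultures had therefore also grown for longer than the 24 h cultures, and each drug effect was read against the DMSO cultures of its own time point.

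ATF4 is a bZIP transcription factor at the core of the integrated stress response. When amino acids run short, or when unfolded proteins, haem deficiency or double-stranded RNA activate a kinase of eIF2 alpha, general translation slows while the Atf4 message is translated better. ATF4 then switches on genes for amino acid synthesis, uptake and tRNA charging together with its own feedback inhibitors. Much of this control acts on the protein, which arrays do not measure. In bulk RNA, fewer expressing cells and less RNA per cell cannot be told apart.

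MEK inhibition was visible in the arrays, since 7 of 8 genes of ERK output were lower under GDC-0623 at 24 h and 7 of 8 at 72 h, among them the early response factor Egr1 (log2 change −4.90 ± 0.12 and −5.57 ± 0.43, SE). The array medians lay between 4.63 and 4.69, and arrays of the same group correlated at 0.9954 to 0.9980 over all probe sets. Replicate 1 of the 72 h GDC-0623 group stood apart from replicates 2 and 3 on the first principal component, at 77.4 against 44.8 to 49.8. On that array 8 of the 10 genes had their lowest and 2 their highest value of the group, so results are also given without it where it matters. The cells did not show the epithelial markers of colon: the means of all 8, from Cdh1 at 2.66 to Epcam at 5.47, lay in the low range where RMA values of silent genes fall. Endothelial markers (3.04 to 4.78) and 8 of 9 leukocyte markers (under 6, all but Cd14 at 6.99) lay there too. Of 8 fibroblast markers, 4 exceeded 6 (Pdgfra, Pdgfrb, Col1a2 and Dcn), while Thy1 and Fap had means of 4.07 and 3.29. The mean of this fibroblast list ran from 5.89 to 6.08 over the 24 h DMSO arrays, 6.35 to 6.44 at 72 h in DMSO, 6.45 to 6.62 at 24 h in GDC-0623 and 7.39 to 7.66 at 72 h in GDC-0623. It thus rose with time in DMSO, as most of the genes below did, and rose with the drug, where most of them fell. Its part in their changes was not tested.

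Promoter sequence was looked at as a description, and its relation to the changes was not tested. RefSeq windows of 300 bases (build GRCm38.p6, 250 bases before the transcription start and 50 from it on) were held for 9 of the 10 genes, and Cth had none in the table used. The windows were searched on both strands for the C/EBP-ATF composite letters TGATGNAA and for the related TGACGNAA, which differs from it at 1 base so that no match counts for both. TGATGNAA occurred in Asns, Atf3, Chac1 and Trib3, 4 of 9 genes (4 of their 10 windows). It occurred in 3.97% of all 32851 windows of that length. TGACGNAA occurred in Atf3 and Chac1, 2 of 9 genes (2 of 10 windows), and in 1.59% of all windows. The genes were chosen by name as parts of the ATF4 response, so these shares carry no test. The upstream bases of the matching genes are shown on the gene's strand, since these are the letters that such a factor could read, and capitals mark the matches. The Asns stretch is chr6:7693210-7693459 (minus strand), the Atf3 stretch chr1:191183334-191183583 (minus strand), the Chac1 stretch chr2:119350992-119351241 (plus strand) and the Trib3 site, which lies just after the start, chr2:152344029-152344056 (minus strand).
Asns: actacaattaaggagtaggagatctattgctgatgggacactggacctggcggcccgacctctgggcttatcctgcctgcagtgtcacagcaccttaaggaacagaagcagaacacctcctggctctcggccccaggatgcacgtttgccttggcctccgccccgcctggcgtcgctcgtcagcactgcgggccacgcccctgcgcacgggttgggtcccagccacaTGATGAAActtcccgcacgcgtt
Atf3: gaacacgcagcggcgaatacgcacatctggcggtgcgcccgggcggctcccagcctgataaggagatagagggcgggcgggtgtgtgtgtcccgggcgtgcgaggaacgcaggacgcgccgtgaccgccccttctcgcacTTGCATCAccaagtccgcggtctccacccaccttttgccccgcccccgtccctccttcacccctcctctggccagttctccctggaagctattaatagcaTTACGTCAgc
Chac1: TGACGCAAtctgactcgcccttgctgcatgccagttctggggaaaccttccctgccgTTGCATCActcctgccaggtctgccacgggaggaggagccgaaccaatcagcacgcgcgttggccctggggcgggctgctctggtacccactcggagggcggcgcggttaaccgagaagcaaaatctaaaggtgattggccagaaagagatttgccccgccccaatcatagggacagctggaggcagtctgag
Trib3: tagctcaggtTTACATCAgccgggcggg
Counted from the start site as base 1, with the base before it as −1, the TGATGNAA match of Asns began at −23, those of Atf3 and Chac1 at −110 and −193 and that of Trib3 at 15. The TGACGNAA matches began at −10 in Atf3 and at −250 in Chac1. In Atf3 and Trib3 every match read on the opposite strand, as did the TGATGNAA match of Chac1. These are matches of letters, and binding was not measured. Asns, Chac1 and Trib3, with a match, were lower in the drug at 24 h and 72 h. So were Atf4, Psat1 and Sesn2, without a match in their windows. Atf3, which matched each pattern, was higher in the drug at 24 h. A site outside the 300 bases would be missed.

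The 10 genes changed both with culture time and with the drug. Changes below are log2 differences with the standard error of the limma fit, and a gene was called at an adjusted p under 0.05. In DMSO, 8 of 10 rose from 24 h to 72 h and none fell, where 8.41% of all genes rose, 5.14% fell and 13.5% changed in either direction. At 24 h, GDC-0623 lowered 8 of 10 and raised Atf3 (8.23% of all genes were lower, 13.3% higher and 21.5% changed). At 72 h, 7 of 10 were lower than in DMSO and none was higher (12.4%, 13.8% and 26.3% of all genes). From 24 h to 72 h in GDC-0623, 3 of 10 rose and none fell (5.79% of all genes rose, 3.11% fell and 8.9% changed). The arrays of the groups compared did not overlap for 9 of 10 genes over time in DMSO, 9 for the drug at 24 h, 8 for the drug at 72 h and 5 over time in GDC-0623, where 36.2%, 41.2%, 45.1% and 33.2% of all genes showed no overlap. The median log2 change of the 10 genes was 0.54 over time in DMSO, −0.38 for the drug at 24 h, −0.68 for the drug at 72 h and 0.42 over time in GDC-0623. The medians over all genes lay at −0.02, −0.03, −0.03 and −0.03. These shares and medians include genes that are dim on every array, and values among expressed genes alone were not computed. Without replicate 1 of the 72 h GDC-0623 group, 7 of 10 were lower at 72 h and 3 rose over time in the drug. The count at 24 h was 5 lower without replicate 1 or 3 of DMSO or replicate 1 or 2 of GDC-0623. It was 4 lower (Trib3, Chac1, Cth and Psat1) when arrays were scaled by their hybridization controls, which moved the median of all probe sets from −0.04 to 0.11. The count of rises in GDC-0623 was 1 without replicate 2 of the 24 h GDC-0623 group. Shares of all genes were computed for the main fits only. Whether these changed counts follow a general change in calls was therefore not tested.

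**Figure D1:**
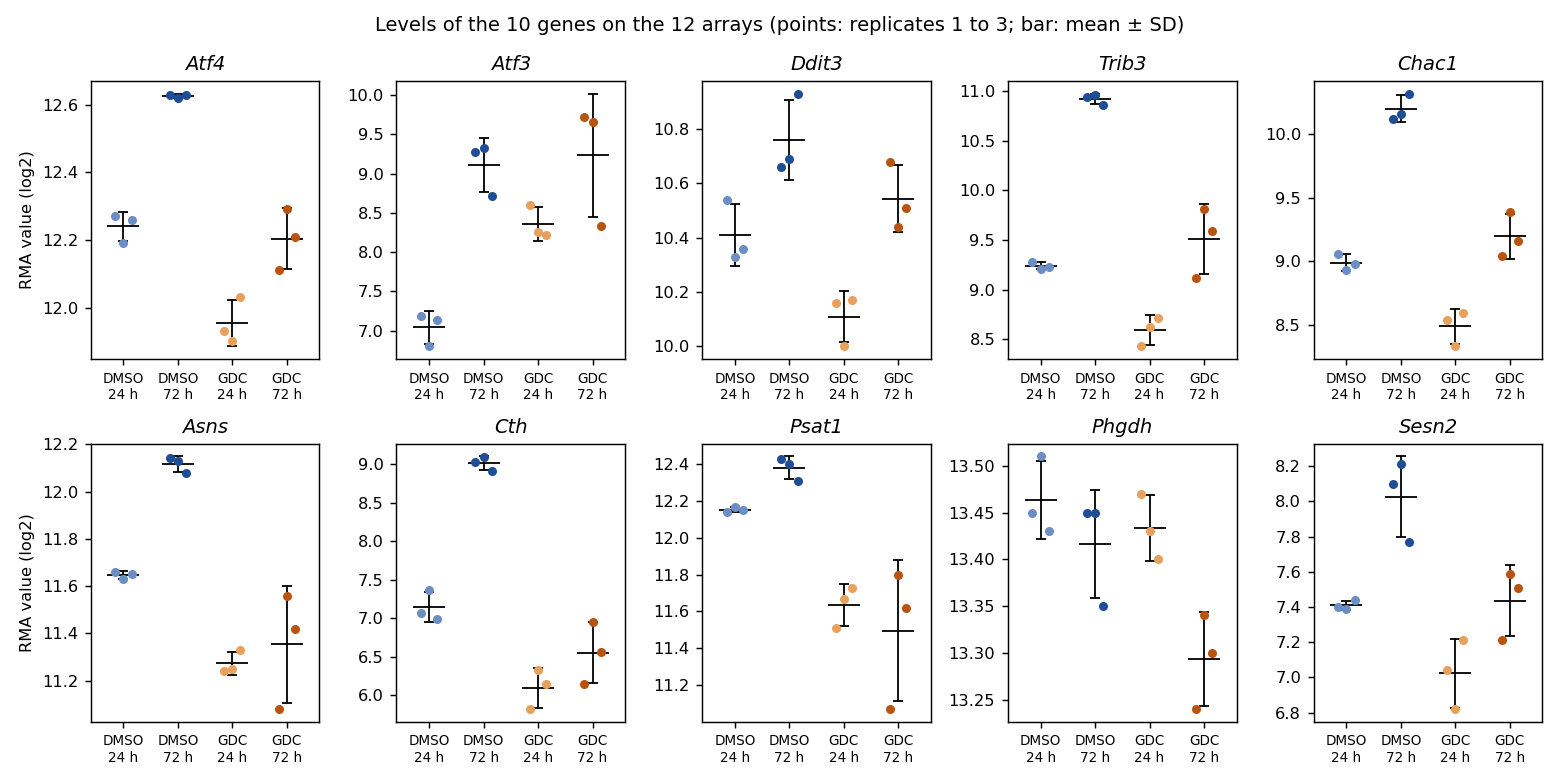
RMA values (log2, vertical axis, a separate scale for each gene) of the 10 genes on the 12 arrays, by treatment and time. Points are the 3 replicates in their order, bars the mean ± SD. The 72 h DMSO group has the highest mean for every gene but Atf3 and Phgdh, and for all of these but Ddit3 no array of another group reaches it.

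The transcription factors come first. Atf4 itself was a strongly expressed transcript. Its values were 12.27, 12.19 and 12.26 at 24 h in DMSO, 11.93, 11.90 and 12.03 at 24 h in GDC-0623, 12.63, 12.62 and 12.63 at 72 h in DMSO and 12.11, 12.29 and 12.21 at 72 h in GDC-0623. The 72 h DMSO arrays were the highest and the 24 h GDC-0623 arrays the lowest, and the 72 h GDC-0623 arrays overlapped those of 24 h DMSO. Atf4 rose by 0.39 ± 0.059 in DMSO over time (adjusted p = 0.00537), a 1.31-fold change. GDC-0623 lowered it by a log2 change of −0.29 ± 0.069 at 24 h (adjusted p = 0.0202) and −0.42 ± 0.078 at 72 h (adjusted p = 0.00494). The change at 24 h missed the threshold when replicate 1 or 3 of DMSO or replicate 1 or 2 of GDC-0623 was left out (adjusted p = 0.0561 to 0.0727), and held without either of the other arrays. In GDC-0623 over time the difference was 0.25 ± 0.083 (adjusted p = 0.105), although all 72 h arrays lay above all 24 h arrays.

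Atf3, a bZIP repressor and activator that ATF4 and several other stress pathways induce, was the only gene of the 10 higher in the drug at 24 h. Its values were 7.19, 6.80 and 7.14 at 24 h in DMSO and 8.60, 8.25 and 8.22 at 24 h in GDC-0623, with no overlap. They were 9.28, 9.33 and 8.71 at 72 h in DMSO and 9.72, 9.65 and 8.33 at 72 h in GDC-0623, where the groups overlapped. The drug raised Atf3 at 24 h by 1.31 ± 0.13 (2.49-fold, adjusted p = 0.000177), against a fall of Atf4 at the same time. Culture in DMSO raised it by 2.06 ± 0.17 (4.18-fold, adjusted p = 0.000363). At 72 h the drug difference was 0.13 ± 0.34 (adjusted p = 0.850), and its sign turned to −0.12 without replicate 1, −0.08 without replicate 2 of GDC-0623 and −0.07 without replicate 3 of DMSO. The rise over time within GDC-0623 was 0.88 ± 0.32 (adjusted p = 0.128) with replicate 3, at 8.33, below the other 72 h arrays, and 1.33 without it (adjusted p = 0.000893).

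Ddit3 encodes CHOP, the bZIP factor that ATF4 induces under prolonged stress and that promotes cell death. Its values spanned 10.33 to 10.54 at 24 h in DMSO, at most 10.17 at 24 h in GDC-0623, 10.66 to 10.93 at 72 h in DMSO and 10.44 to 10.68 at 72 h in GDC-0623. Its changes were among the smallest of the called ones. It was lower by −0.30 ± 0.084 in the drug at 24 h (adjusted p = 0.0376), and this call was lost whichever array was left out (adjusted p = 0.0537 to 0.131). The rise in DMSO was 0.35 ± 0.093 (adjusted p = 0.0486) and was lost without any single array but replicate 1 of 24 h DMSO (adjusted p = 0.0666 to 0.144 without the others). The drug difference at 72 h was −0.22 ± 0.10 (adjusted p = 0.185). In GDC-0623 over time Ddit3 rose by 0.43 ± 0.093 (adjusted p = 0.0241), a call that was lost without any of the 24 h arrays or without replicate 1 at 72 h (adjusted p = 0.0525 to 0.109).

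Trib3, Chac1 and Sesn2 act downstream of the factors. Trib3 encodes a pseudokinase that binds ATF4 and AKT and feeds back on the response. Its values were 9.28, 9.21 and 9.23 at 24 h in DMSO, 8.43, 8.63 and 8.72 at 24 h in GDC-0623, 10.94, 10.96 and 10.86 at 72 h in DMSO and 9.12, 9.81 and 9.59 at 72 h in GDC-0623. The 72 h DMSO arrays stood more than 1 log2 unit above all others. Trib3 rose by 1.68 ± 0.062 in DMSO (3.20-fold, adjusted p = 2.4e-05) and by 0.91 ± 0.16 in GDC-0623 (1.88-fold, adjusted p = 0.0105, or 0.0514 without replicate 2 of the 24 h GDC-0623 group). The drug lowered it by −0.65 ± 0.085 at 24 h (1.57-fold lower, adjusted p = 0.000902) and by −1.41 ± 0.15 at 72 h (2.66-fold lower, adjusted p = 0.000341).

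Chac1 encodes a gamma-glutamyl cyclotransferase that degrades glutathione and is a well known target of ATF4. It was measured at 9.06, 8.93 and 8.98 in 24 h DMSO, 8.54, 8.33 and 8.59 in 24 h GDC-0623, 10.12, 10.16 and 10.32 in 72 h DMSO and 9.04, 9.39 and 9.16 in 72 h GDC-0623. As for Trib3, drug-treated cells at 72 h were close to 24 h DMSO and far from 72 h DMSO. It rose by 1.21 ± 0.075 in DMSO (2.31-fold, adjusted p = 9.3e-05) and by 0.71 ± 0.11 in GDC-0623 (1.64-fold, adjusted p = 0.00601). The drug effect was −0.50 ± 0.085 at 24 h (adjusted p = 0.00341) and −1.003 ± 0.106 at 72 h (2.005-fold lower, adjusted p = 0.000293).

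Sesn2 encodes sestrin 2, a leucine sensor that restrains mTORC1. Its values ranged from 7.39 to 7.44 at 24 h in DMSO, 6.82 to 7.21 at 24 h in GDC-0623, 7.77 to 8.21 at 72 h in DMSO and 7.21 to 7.59 at 72 h in GDC-0623. It rose by 0.62 ± 0.11 in DMSO (adjusted p = 0.00944). The drug effect was −0.39 ± 0.097 at 24 h (adjusted p = 0.0238) and −0.59 ± 0.14 at 72 h (adjusted p = 0.0144). The call at 24 h was lost when any array but replicate 3 of GDC-0623 was left out (adjusted p up to 0.0740), and that at 72 h without replicate 1 or 2 of DMSO (adjusted p = 0.0593 and 0.0631). Over time in GDC-0623 the difference was 0.41 ± 0.13 (adjusted p = 0.0847, or 0.0386 without replicate 1 of the 72 h GDC-0623 group).

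Of the synthesis enzymes, Asns, asparagine synthetase, is the classical amino acid response gene. Its values were 11.66, 11.63 and 11.65 at 24 h in DMSO, 11.24, 11.25 and 11.33 at 24 h in GDC-0623, 12.14, 12.13 and 12.08 at 72 h in DMSO and 11.08, 11.56 and 11.42 at 72 h in GDC-0623. All arrays of the drug lay below all arrays of DMSO, whatever the time. Asns rose by 0.47 ± 0.058 in DMSO (1.39-fold, adjusted p = 0.00224). The drug effect was −0.37 ± 0.065 at 24 h (adjusted p = 0.00415) and −0.76 ± 0.12 at 72 h (1.70-fold lower, adjusted p = 0.00211). Over time in GDC-0623 the difference was 0.08 ± 0.12 (adjusted p = 0.750).

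Cth, cystathionine gamma-lyase, makes cysteine from methionine-derived cystathionine. It gave 7.07, 7.36 and 6.99 at 24 h in DMSO, 5.82, 6.33 and 6.14 at 24 h in GDC-0623, 9.03, 9.09 and 8.91 at 72 h in DMSO and 6.15, 6.95 and 6.56 at 72 h in GDC-0623. The drug-treated values came near the range of dim probe sets, where RMA compresses differences, so its folds may be understated. Cth showed the largest drug effects of the 10 genes at 72 h, −2.46 ± 0.17 (5.49-fold lower, adjusted p = 3.6e-05), after −1.04 ± 0.14 at 24 h (2.06-fold lower, adjusted p = 0.000900). It rose by 1.87 ± 0.10 in DMSO (3.66-fold, adjusted p = 6.5e-05). In GDC-0623 the difference over time was 0.46 ± 0.19 (adjusted p = 0.191).

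Psat1 and Phgdh carry out consecutive steps from 3-phosphoglycerate to serine, and they parted here. Psat1, phosphoserine aminotransferase, gave 12.14, 12.17 and 12.15 at 24 h in DMSO, 11.51, 11.67 and 11.73 at 24 h in GDC-0623, 12.43, 12.40 and 12.31 at 72 h in DMSO and 11.07, 11.80 and 11.62 at 72 h in GDC-0623. Every drug-treated array lay below every DMSO array. The drug effect was −0.52 ± 0.076 at 24 h (adjusted p = 0.00164) and −0.88 ± 0.16 at 72 h (1.84-fold lower, adjusted p = 0.00506), or −0.67 at 72 h without replicate 1 of GDC-0623 (adjusted p = 0.00219). The differences over time were 0.23 ± 0.062 in DMSO (adjusted p = 0.0517) and −0.14 ± 0.17 in GDC-0623 (adjusted p = 0.677). Phgdh, phosphoglycerate dehydrogenase, which opens the pathway, stayed between 13.24 and 13.51 on all 12 arrays. Its differences were −0.03 ± 0.066 for the drug at 24 h, −0.12 ± 0.076 for the drug at 72 h and −0.05 ± 0.063 over time in DMSO, and none passed the threshold (adjusted p = 0.809, 0.319 and 0.700).

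The other probe sets of these genes were checked in the same fits. Atf3, Chac1 and Cth had 1 probe set each, and the other 7 genes had 10 further probe sets. Second probe sets of Trib3 and Asns gave nearly the same values, with drug effects at 72 h of −1.42 and −0.91 and rises in DMSO of 1.61 and 0.56. Those of Sesn2 and Psat1 gave −0.56 and −0.88 at 72 h. For Sesn2 the second probe set also passed the threshold over time in GDC-0623 (0.46, adjusted p = 0.0097). A second Atf4 probe set differed by −0.51 at 72 h (adjusted p = 0.0388) but missed the threshold at 24 h (−0.28, adjusted p = 0.112) and over time in DMSO (0.41, adjusted p = 0.13). Another, dim at 4.26 to 4.58 on average, was lower in the drug by −0.32 and −0.30 but differed by −0.01 over time in DMSO (adjusted p = 0.97). The second Ddit3 probe set, dim at about 5.5 in 24 h DMSO, passed the threshold in none of these comparisons (drug effects −0.11 and 0.05). For Phgdh, 3 further probe sets did not pass the threshold for the drug at either time or over time, and 2 more, shared with the gene models Gm8096 and Gm6756, were not used. The least bright of the 3, at 12.01 in 24 h DMSO, had the largest drug difference at 72 h (−0.24, adjusted p = 0.110). All Phgdh probe sets were bright, and whether they register a fall in full was not tested.

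**Figure D2:**
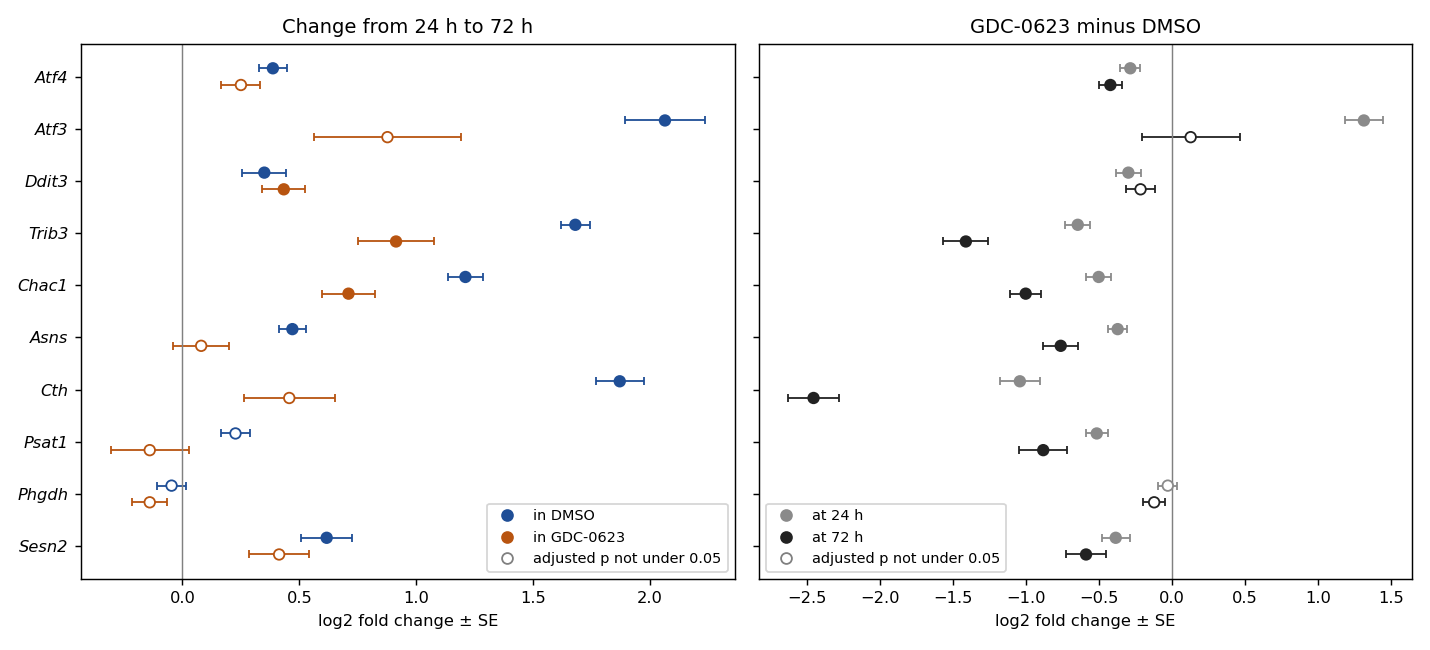
Log2 fold changes ± SE of the 10 genes, on the left from 24 h to 72 h within DMSO and within GDC-0623, on the right for GDC-0623 minus DMSO at each time. Open symbols did not reach an adjusted p under 0.05. Trib3, Chac1 and Cth combine rises of 1.21 to 1.87 in DMSO with drug effects of −1.003 to −2.46 at 72 h, while Phgdh stays near 0 and Atf3 is the only gene raised by the drug at 24 h.

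The drug difference at 72 h joins the fall already present at 24 h with whatever the DMSO cultures gained and the treated cultures did not. For Cth, the −2.46 at 72 h was −1.04 from 24 h plus a time change of 0.46 in GDC-0623 less 1.87 in DMSO. Whether the drug effect grew was tested over all 12 arrays as the difference of the effects, 72 h minus 24 h, which equals the time change in GDC-0623 minus that in DMSO. Cth was the only one of the 10 to pass (−1.41 ± 0.25, adjusted p = 0.00753), where 3.08% of all genes passed, 1.62% higher and 1.46% lower. Trib3 came close at −0.77 ± 0.19 (adjusted p = 0.0563) and passed without replicate 1 or replicate 2 of the 72 h GDC-0623 group (−0.57, adjusted p = 0.0379, and −0.92, adjusted p = 0.00937). Chac1 differed by −0.50 ± 0.14 (adjusted p = 0.0931, or 0.0289 without replicate 2 of that group), Atf3 by −1.19 ± 0.41 (adjusted p = 0.187) and Asns by −0.39 ± 0.14 (adjusted p = 0.199). For Atf4 the difference of the effects was −0.14 ± 0.097 (adjusted p = 0.577).

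Setting 72 h GDC-0623 against the 24 h DMSO cultures, where the means of 5 genes were below and of 5 above, shows where treated cells ended up. Atf3 was higher by 2.19 ± 0.32 (4.56-fold, adjusted p = 0.00118). Psat1 was lower by −0.66 ± 0.16 (adjusted p = 0.0151, or 0.0534 without replicate 2 of 24 h DMSO) and Cth by −0.59 ± 0.19 (adjusted p = 0.0427). The Cth call was lost when any array but replicate 2 of 72 h GDC-0623 was left out (adjusted p up to 0.146). The arrays did not overlap for 5 of the 10 genes, against 52.8% of all genes. Among all genes 35.6% differed in this comparison, 17.6% higher and 18% lower. The other 7 genes did not pass with the probe sets used here. The differences were −0.04 ± 0.077 for Atf4, 0.13 ± 0.093 for Ddit3, 0.27 ± 0.15 for Trib3, 0.21 ± 0.099 for Chac1, −0.29 ± 0.12 for Asns, −0.17 ± 0.071 for Phgdh and 0.03 ± 0.10 for Sesn2. Trib3 passed (0.46, adjusted p = 0.00808) without replicate 1 of 72 h GDC-0623, and Asns (−0.40, adjusted p = 0.0327) without replicate 2. Phgdh passed with dim probe sets left out (adjusted p = 0.0421), with a trended and robust prior (adjusted p = 0.0123) and with the mean of its probe sets (−0.21, adjusted p = 0.0342), and 1 of its other probe sets was lower by −0.33 (adjusted p = 0.0244). The dim Atf4 probe set was lower by −0.31 (adjusted p = 0.0138). Asns also passed in a single fit over the 12 arrays (adjusted p = 0.0338). This comparison mixes drug and time and shares its arrays with the others.

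Across the 12 arrays, the 45 pairs of the genes followed here had a Pearson r of −0.55 to 0.99, with a median of 0.72. Atf4, Trib3, Chac1, Asns, Cth and Sesn2 ran together, at 0.88 to 0.99 in their 15 pairs. Atf3 and Ddit3 also rose in DMSO but lie outside this set, so its range describes a chosen set. Trib3 and Chac1 were the closest pair (r = 0.99). Ddit3 was looser (−0.39 to 0.88 with the other 9), and Atf3 (−0.55 to 0.43) and Phgdh (−0.55 to 0.59) did not follow the chosen set. Psat1 ran from −0.27 to 0.93 with the other 9, at 0.93 with Asns and 0.85 with Cth. The arrays share their groups, so these values describe the group pattern and carry no test. Among 9483 genes with a mean of at least 6 in 1 group or more, the genes most like Atf4 were Abcd4, a lysosomal cobalamin transporter (r = 0.989), the seryl-tRNA synthetase Sars (0.987), the reductase Cyb5r1 (0.985) and the threonyl- and cysteinyl-tRNA synthetases Tars (0.985) and Cars (0.984). Chac1 ranked 9th, Trib3 11th and Sesn2 32nd in that order, while Psat1 ranked 598th and Atf3 3111th. Abcd4 went from a mean of 8.27 to 9.06 in DMSO and from 7.88 to 8.27 in GDC-0623. Nearest to Asns were Gap43, a growth cone protein (0.990), Phf10 (0.988), phosphoserine phosphatase Psph (0.987), the aminotransferase Kyat3 (0.985) and the mitochondrial carrier Slc25a33 (0.985).

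**Figure D3:**
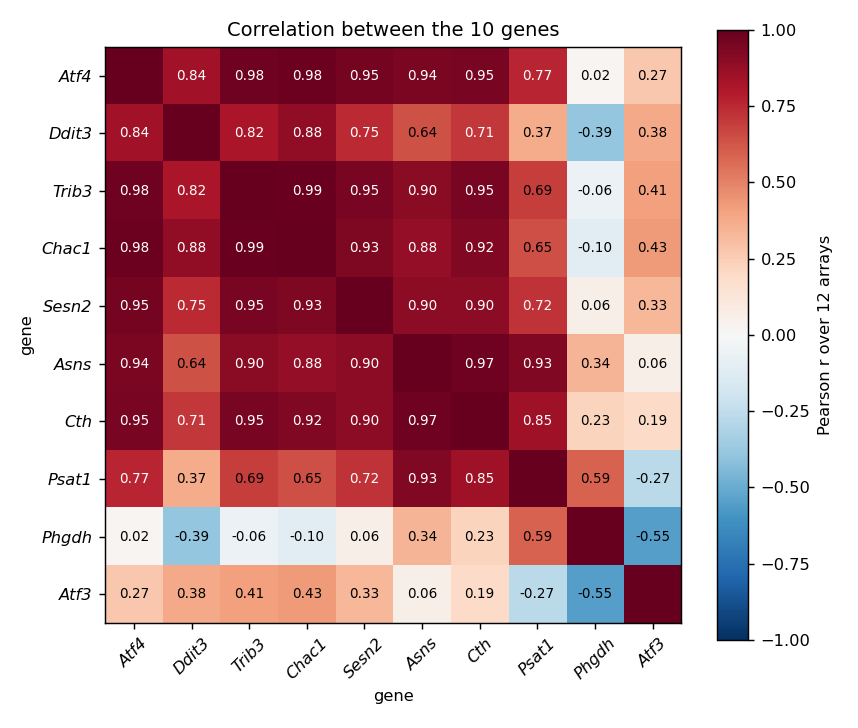
Pearson r between each pair of the 10 genes over the 12 arrays, coloured from −1 to 1. The block of Atf4, Trib3, Chac1, Sesn2, Asns and Cth, a chosen set, lies at 0.88 or more. Outside it, Psat1 reaches 0.93 with Asns, and the rows of Phgdh and Atf3 do not exceed 0.59.

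The rest of the pathway was followed through 9 lists of genes that hold none of the 10. Starting upstream, the kinases, phosphatase subunits and exchange factor of eIF2 showed no common direction. Of 13 measured, 2 rose and 2 fell in DMSO over time, 2 were higher and 2 lower in the drug at 24 h, and 3 were higher and 5 lower at 72 h (list medians −0.05, −0.03 and −0.07). Ppp1r15a, which encodes GADD34, the stress-induced phosphatase subunit that closes the response, rose by 1.80 ± 0.16 in DMSO and by 0.96 ± 0.23 in GDC-0623, and was lower by −0.88 ± 0.26 in the drug at 72 h. Eif2ak2, the double-stranded RNA kinase PKR, which interferon induces, was higher in the drug by 0.36 ± 0.08 at 24 h and 1.78 ± 0.14 at 72 h. The activity of this kinase was not measured, and its part in the changes of the 10 genes was not tested. Eif2ak3, the ER kinase PERK, was higher by 0.45 ± 0.07 at 24 h.

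Among 8 bZIP partners and relatives of ATF4, 5 rose in DMSO and 4 in GDC-0623 over time, and 2 were higher and 1 lower in the drug at each time point (medians 0.30, 0.36, 0.06 and 0.14). The lower gene was Cebpg, a partner of ATF4 at composite sites (−0.27 ± 0.08 at 24 h and −0.55 ± 0.11 at 72 h). Cebpd, an inflammation-induced C/EBP factor, was higher by 1.82 ± 0.11 at 72 h. Cebpb rose over time with and without the drug, by 0.53 ± 0.08 in DMSO and 0.54 ± 0.10 in GDC-0623.

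The serine, glycine and one-carbon list came closest to Psat1. Of 8 genes, 5 rose in DMSO, none changed over time in GDC-0623, and 6 were lower at 24 h and 7 at 72 h in the drug, with none higher (medians 0.28, 0.00, −0.50 and −0.91). Shmt1, cytosolic serine hydroxymethyltransferase, was lower by −1.05 ± 0.10 and −1.19 ± 0.15. Psph, the last enzyme of serine synthesis, rose by 0.63 ± 0.07 in DMSO and was lower by −1.08 ± 0.12 in the drug at 72 h. Mthfd2, the mitochondrial folate enzyme, was lower by −0.68 ± 0.10 and −0.92 ± 0.11. Against 24 h DMSO, 5 of the 8 were lower at 72 h in the drug, among them Mthfd1 (−0.97 ± 0.15). At 72 h both steps after Phgdh in serine synthesis, Psat1 and Psph, were lower in the drug, while Phgdh was not called.

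Of 10 other amino acid synthesis enzymes measured, 4 rose in DMSO, 3 were lower and 1 higher in the drug at 24 h, and 5 were lower at 72 h. Gpt2, the mitochondrial alanine transaminase, rose by 0.94 ± 0.06 in DMSO and was lower by −1.14 ± 0.12 at 72 h. Aldh18a1, which starts proline synthesis, rose by 0.54 ± 0.07 and was lower by −0.77 ± 0.11. Bcat1, the cytosolic branched-chain transaminase, was lower by −0.34 ± 0.07 and −0.75 ± 0.13. Asl, argininosuccinate lyase, was the enzyme higher at 24 h (0.34 ± 0.07).

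Amino acid uptake and tRNA charging follow. Of 11 amino acid transporters, 6 rose in DMSO and 1 in GDC-0623 over time, and 4 were lower at 24 h and 9 at 72 h in the drug, with none higher (medians 0.31, 0.03, −0.22 and −0.45). Slc7a11, the cystine importer xCT, rose by 1.47 ± 0.14 in DMSO and was lower by −0.94 ± 0.15 at 24 h and −1.94 ± 0.12 at 72 h. Slc7a11 and Cth both serve the supply of cysteine. Slc6a9, a glycine transporter, rose by 1.14 ± 0.08 in DMSO and was lower by −0.95 ± 0.09 at 72 h. Slc1a5, the glutamine carrier, rose by 0.58 ± 0.07 in DMSO and by 0.54 ± 0.09 in GDC-0623, and was lower by −0.70 ± 0.08 and −0.75 ± 0.09 in the drug. Of 19 cytosolic aminoacyl-tRNA synthetases, 9 rose and 1 fell in DMSO, none changed over time in GDC-0623, and 9 were lower at 24 h and 13 at 72 h, with none higher (medians 0.13, −0.04, −0.22 and −0.41). Wars, for tryptophan, rose by 0.68 ± 0.06 and was lower by −0.81 ± 0.11 at 72 h. Tars rose by 0.38 ± 0.06 and was lower by −0.42 ± 0.07 at 24 h.

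**Figure D4:**
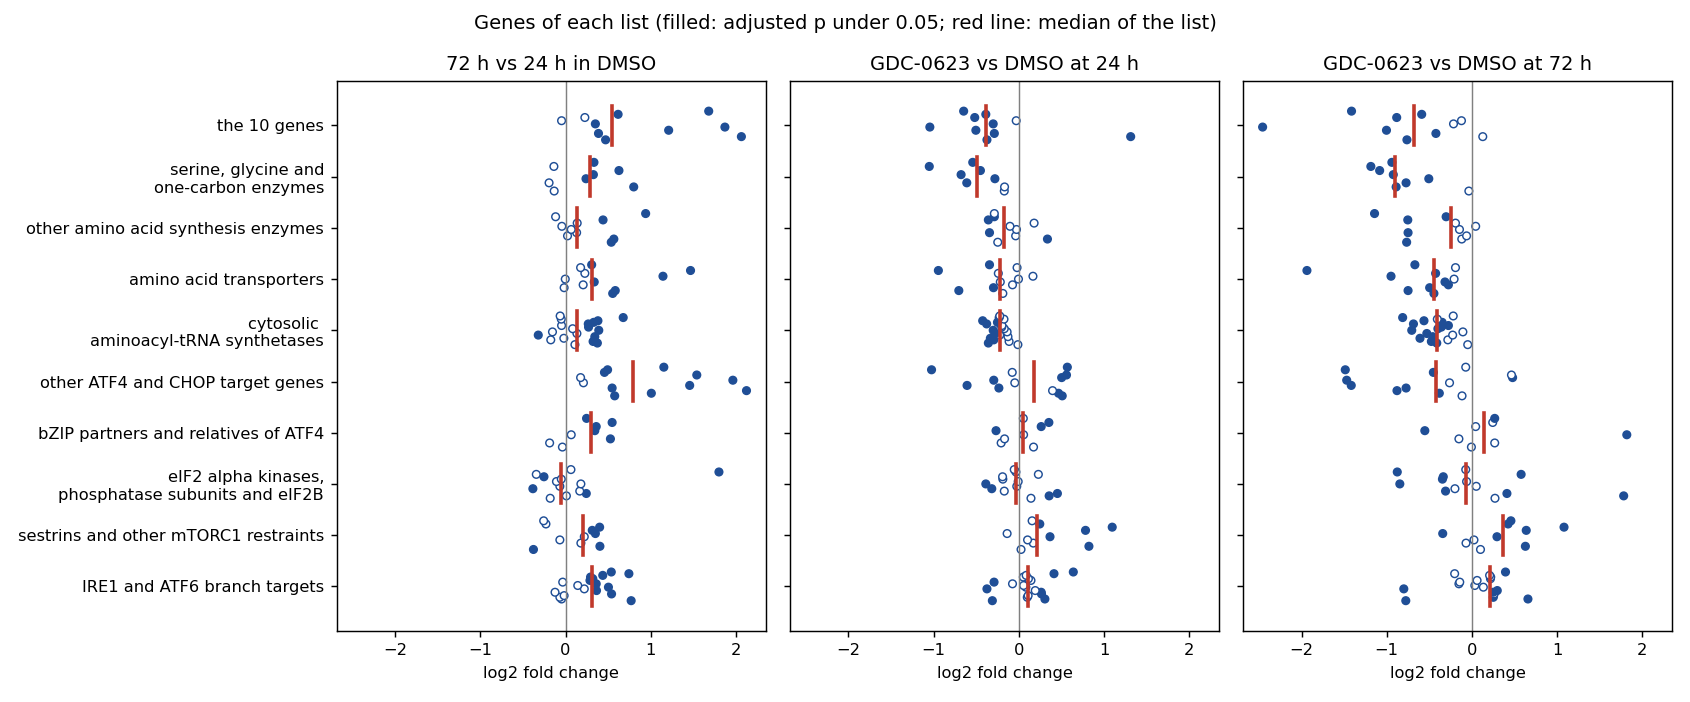
Log2 fold changes of the genes of each list over time in DMSO (left) and for GDC-0623 minus DMSO at 24 h (middle) and 72 h (right). Each point is a gene, filled where the adjusted p was under 0.05, and red lines are list medians. The 10 genes, the serine and one-carbon enzymes, the transporters and the tRNA synthetases lie mostly right of 0 in the left panel and left of 0 in the others, while the mTORC1 restraints lie mostly right of 0 at 72 h.

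Other targets of ATF4 and CHOP mostly rose with culture time, while the drug moved them in both directions. Of 12 measured, 10 rose in DMSO and 5 in GDC-0623 over time, while 5 were higher and 4 lower in the drug at 24 h and 1 was higher and 7 lower at 72 h (medians 0.79, 0.15, 0.18 and −0.42). Ddit4, the mTORC1 inhibitor REDD1, rose by 2.12 ± 0.14 in DMSO and was lower by −0.88 ± 0.14 at 72 h. Gadd45a, a growth arrest gene, rose by 1.96 ± 0.12 and was lower by −1.47 ± 0.16 at 72 h. Stc2, a secreted glycoprotein, was lower by −1.02 ± 0.10 and −1.49 ± 0.20. Nupr1, a stress-induced chromatin protein, rose over time in DMSO (1.54 ± 0.10) and in GDC-0623 (1.44 ± 0.15) and was higher by 0.56 ± 0.10 in the drug at 24 h, as Atf3 was. Several of these genes also answer to p53. Of 9 p53 targets, 5 rose in DMSO, 6 were higher and 1 lower at 24 h, and 3 were higher and 3 lower at 72 h, with Cdkn1a, the CDK inhibitor p21, at 0.47 ± 0.10 and −0.38 ± 0.10.

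Sesn1 and Sesn3, the relatives of Sesn2, were higher under the drug. In the list of sestrins and other mTORC1 restraints, 5 of 10 were higher at 24 h and none lower, and 6 were higher and 1 lower at 72 h (medians 0.21 and 0.36). Sesn1, a p53 and FOXO target, was higher by 0.78 ± 0.10 and 0.64 ± 0.08, and Sesn3, a FOXO target, by 1.10 ± 0.15 and 1.08 ± 0.18, where Sesn2 was lower at both times. Castor2, of the CASTOR arginine sensor family, was higher by 0.82 ± 0.13 and 0.63 ± 0.10. Over time in DMSO, 4 rose and 1 fell, and in GDC-0623 none changed.

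The branches of the ER stress response that do not run through ATF4 moved in both directions under the drug. Of 18 targets of IRE1 and ATF6, 11 rose in DMSO and 6 in GDC-0623 over time with none lower, 5 were higher and 3 lower in the drug at 24 h, and 6 were higher and 2 lower at 72 h (medians 0.31, 0.29, 0.11 and 0.21). Xbp1, the factor spliced by IRE1, rose by 0.54 ± 0.07 in DMSO and was higher in the drug by 0.64 ± 0.09 at 24 h and 0.39 ± 0.08 at 72 h. Ern1, which encodes IRE1 alpha, was lower by −0.37 ± 0.08 and −0.80 ± 0.09, and Atf6 by −0.31 ± 0.09 and −0.78 ± 0.09. These lists were chosen with earlier results of the same arrays known, and no list was tested as a whole.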

How the data were processed

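RNA of MC38 cells was hybridised to Affymetrix mouse GeneChip arrays. The authors deposited log2 values from robust multichip averaging (RMA). The submitters' processing notes name the same tool, and its version is not given in the sources used here. RMA includes quantile normalisation, which removes shifts shared by most genes and gives no detection call. The number of arrays limits the precision.

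Of 45101 probe sets, 64 controls were left out and 45037 tested. Platform annotation, with symbols updated by gene identifier, gave 34945 probe sets with 1 gene symbol, 932 with several and 9160 with none, and identifiers of 34741 were matched in the reference gene table. Each of 18193 genes was represented by its single-symbol probe set with the highest mean. Two-sided limma 3.58.1 tests (lmFit and eBayes, R 4.3.3) used the 6 arrays of a comparison, or all 12 for the difference of the drug effects. Adjusted p-values are Benjamini-Hochberg values over all tested probe sets, with a threshold of 0.05, and errors are standard errors. The study's methods also name an empirical Bayes test. The code was tested on simulated data.

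The series describes its replicates as biological. Same-numbered arrays of different groups correlated at -0.04 to 0.29 after removal of group means, above 0.1 in 7 of 18 pairs. In 14 of these 18 the same number was the closest match among the replicates of the other group. The main fits used no pairing, as the study's methods name none, and a fit with the number as a block is given below. From each other list, up to 4 called genes per comparison with the largest change and a mean of at least 6 in the higher group were named. The 10 genes and all lists were chosen with earlier results of these data known. Promoter windows are RefSeq sequences of GRCm38.p6. Figures were drawn with matplotlib 3.10 in Python 3.11.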

Additional observations from a re-analysis of the deposited data

Results flagged for a closer look

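For 21 of the 164 listed genes the drug effects at 72 h and at 24 h differed by the test of the difference itself, 16 with the lower and 5 with the higher effect at 72 h. Over all genes 3.08% differed, 1.46% lower and 1.62% higher. The 164 include the genes of ERK output and the cell type markers. All values are log2 differences of the effects, 72 h minus 24 h. Among the 10 genes this held for Cth (-1.41). Of the enzymes, it held for Psph (-0.63), the mitochondrial folate enzyme Aldh1l2 (-0.72), Gpt2 (-0.86) and Asl (-0.46). Of the transporters and synthetases, it held for Slc7a11 (-0.99), Slc6a9 (-1.12) and Wars (-0.58). Of the other targets of ATF4 and CHOP, 7 genes were among them, namely the lipoprotein receptor Vldlr (-0.64), Ddit4 (-1.28), the translation repressor Eif4ebp1 (-0.54), the ER oxidase Ero1a (-0.81), Gadd45a (-1.18), Cdkn1a (-0.85) and the BH3-only gene Bbc3 (-0.63). Each gene is named under 1 list only. The list of p53 targets shares genes with the others: 3 of its 9 genes had a lower effect at 72 h. These 3, Cdkn1a among them, are named in this paragraph under another list. Sel1l, of ER-associated degradation, differed by -0.62. In the opposite direction stood Eif2ak2 (1.42), Cebpd (1.76) and 3 fibroblast markers, Col1a1 (0.89), Dcn (1.93) and Lum (2.00). Several of these genes are dim in at least 1 group, Lum and Col1a1 among them, and their causes were not tested.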

How the results depend on the processing

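Of 950 recomputed values of the 10 genes, 841 kept their direction and their side of the threshold, 65 lost a call, 31 gained one and 13 changed sign, none of these 13 called on either side. The share of all genes called was not computed under these settings, so the counts of the 10 genes here have no such share beside them. Requiring a change of at least 2-fold, 1 gene was lower at 24 h, 3 were lower at 72 h and 4 rose in DMSO. At that cut 0 rose in GDC-0623 and 0 were lower at 72 h in GDC-0623 than at 24 h in DMSO. Shifting each array by its hybridization controls moved the median over all probe sets from -0.04 to 0.11 for the drug at 24 h, from -0.02 to -0.13 over time in GDC-0623 and from 0.00 to -0.14 for the difference of the effects. Then 4 genes were called lower at 24 h and 4 had a lower drug effect at 72 h. Under it the uncalled values of Phgdh at 24 h (0.12), Asns over time in GDC-0623 (-0.026), Atf4 in 72 h GDC-0623 against 24 h DMSO (0.0078) and Ddit3 in the difference of the effects (-0.056) changed sign.

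A single fit over the 12 arrays gave 5 rises in GDC-0623. Array weights left 1 gene lower at 72 h in GDC-0623 than at 24 h in DMSO. Genes with a lower drug effect at 72 h than at 24 h numbered 1 as reported, 3 without dim probe sets, 3 with a trended and robust prior, 2 with array weights and 2 with the mean of all probe sets of a gene. With the replicate number as a block they numbered 2, and the block ended the call of Ddit3 in DMSO (adjusted p = 0.0812) and added Cth over time in GDC-0623 (adjusted p = 0.0204) and Trib3 in the difference of the effects (adjusted p = 0.0432). Repeated quantile normalisation turned Sesn2 in 72 h GDC-0623 against 24 h DMSO to -0.069.

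With each array left out in turn, 5 to 7 genes were lower at 24 h and 6 to 7 at 72 h, 7 to 8 rose in DMSO and 1 to 4 in GDC-0623. In 72 h GDC-0623 against 24 h DMSO, 0 to 3 were lower and 1 to 2 higher, and 1 to 3 had a lower drug effect at 72 h. Sign changes were seen for Atf3 at 72 h (-0.12 to 0.58), over time in GDC-0623 for Psat1 (-0.29 to 0.073) and Asns (-0.023 to 0.22), and in 72 h GDC-0623 against 24 h DMSO for Atf4 (-0.08 to 0.01) and Sesn2 (-0.05 to 0.14). Where a cause is not stated, the cause was not tested.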
